A study of Mus musculus with 4 samples.

Results

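Calcineurin, its Rcan regulators and the NFAT transcription factors were examined in the mouse dentate gyrus after electroconvulsive stimulation (ECS), a seizure-inducing electrical stimulus. The 10 genes, chosen by name, were Rcan1, Rcan2, Rcan3, Ppp3ca, Ppp3cb, Ppp3r1, Nfatc1, Nfatc2, Nfatc3 and Nfatc4. They have 21 of the 22485 transcript rows that rest on at least 1 probeset, a group of array probes for one stretch of transcript. Rows with the same probesets were counted once, which left 18 of 19207 distinct rows, and 128 of 229712 probesets. No probeset of these genes was listed for another gene. The genes were chosen with their ECS differences known, so these differences are a description and support no further statement.

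Exon arrays were run on dentate gyrus dissected from the hippocampus of 8-week-old wild-type C57/Black6 males, 2 arrays 4 h after sham handling and 2 arrays 4 h after ECS. The stimulus lasted 1.0 s, with 0.3 ms pulses of 18 mA at 100 Hz. Per the labels these are biological replicates, with no statement of how many animals supplied each array. P-values measure the spread between these arrays alone. Limma moderates them and the standard errors, drawing each row's variance toward a value shared over all rows. For transcript rows the shared value had 3.22 degrees of freedom, against 2 for a row's own arrays. Values are on the log2 scale, and a transcript's value is the mean over its probesets. In the transcript table the arrays carry letters (sham A, sham B, ECS A, ECS B), and single probesets carry the labels' replicate numbers. Probes differ in how brightly they bind, so levels of different genes were not ranked.

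Calcineurin is a phosphatase switched on by calcium and calmodulin. It has a catalytic A subunit, encoded in brain mainly by Ppp3ca and Ppp3cb, and a regulatory B subunit, encoded by Ppp3r1. It removes phosphates from NFAT proteins, which then enter the nucleus and bind DNA at GGAAA cores, often together with AP-1 factors. Rcan proteins bind calcineurin and, when abundant, inhibit it. Rcan1 has alternative first exons, and its internal promoter is a known target of NFAT, so that calcineurin activity raises one of its own inhibitors. In hippocampal neurons calcineurin also acts at synapses and is needed for long-term depression.

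As a check of the tissue, the 8 dentate granule cell markers had mean log2 values of 9.51 and 9.58 on sham A and sham B, against 9.18 and 9.25 on ECS A and ECS B. The transcription factor gene Prox1, a defining marker, read 9.29, 9.40, 9.60 and 9.53 in that order. Of the 8 markers 2 lay higher on both ECS arrays and 4 lower, against 18.7% and 30.7% of all genes, and 2 overlapped. Dsp, a desmosome gene, fell by 1.37 on the log2 scale (limma adjusted p = 0.0195), from 9.23 and 9.02 in sham to 7.76 and 7.75 in ECS. It was the only granule cell marker called, and no row of any gene was called without either one of the ECS arrays. The 7 pyramidal cell markers averaged 9.33 and 9.22 on sham A and sham B, and 9.24 and 9.10 on ECS A and ECS B. Mean levels this close do not by themselves tell dentate gyrus from other hippocampal tissue. All 8 choroid plexus markers were highest on sham B, with a summed level of 11.07 there, 9.31 on sham A, and 9.26 and 8.97 on the ECS arrays. All 6 oligodendrocyte markers were highest on ECS A, with a summed level of 13.18 there, 12.81 and 12.70 in sham, and 12.66 on ECS B. Each of the 6 measured blood markers had its lowest values in sham, without overlap of the groups, and their summed levels were 12.92 and 13.57 in sham against 14.18 and 13.91 in ECS. The globin genes among them share their probesets, so the 6 markers are fewer separate readings and the sums count the same values more than once. Rows with no probeset, listed at 0, were left out beforehand, so a measured marker reading above 0 is no sign of detection. In bulk tissue, fewer cells of a type and less RNA per cell cannot be told apart.

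None of the 18 member rows passed the threshold in either direction in limma's test over all rows (Benjamini-Hochberg adjusted p under 0.05), against 0.510% of all rows called higher and 0.193% called lower. Those shares are 98 higher and 37 lower rows, and 88 and 18 with arrays centred on their medians. At an unadjusted p under 0.05, 3 member rows were higher and 1 lower, against 6.40% and 10.6% of all rows. The rows in question were the Rcan1 rows and Nfatc4 on the higher side and Rcan3 on the lower. Rows of the same gene share probesets and are not separate readings. With 1 row per gene, 2 of 10 were higher and 1 lower. Both ECS arrays lay above both sham arrays in 4 member rows and below them in 3, against 18.7% and 30.9% of all rows. The median of the absolute differences was 0.07 over the member rows and 0.13 over all rows. The 14 rows of the other genes had absolute differences of 0.01 to 0.18, with standard errors (SE) of 0.09 to 0.15 over all member rows.

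**Figure D1:**
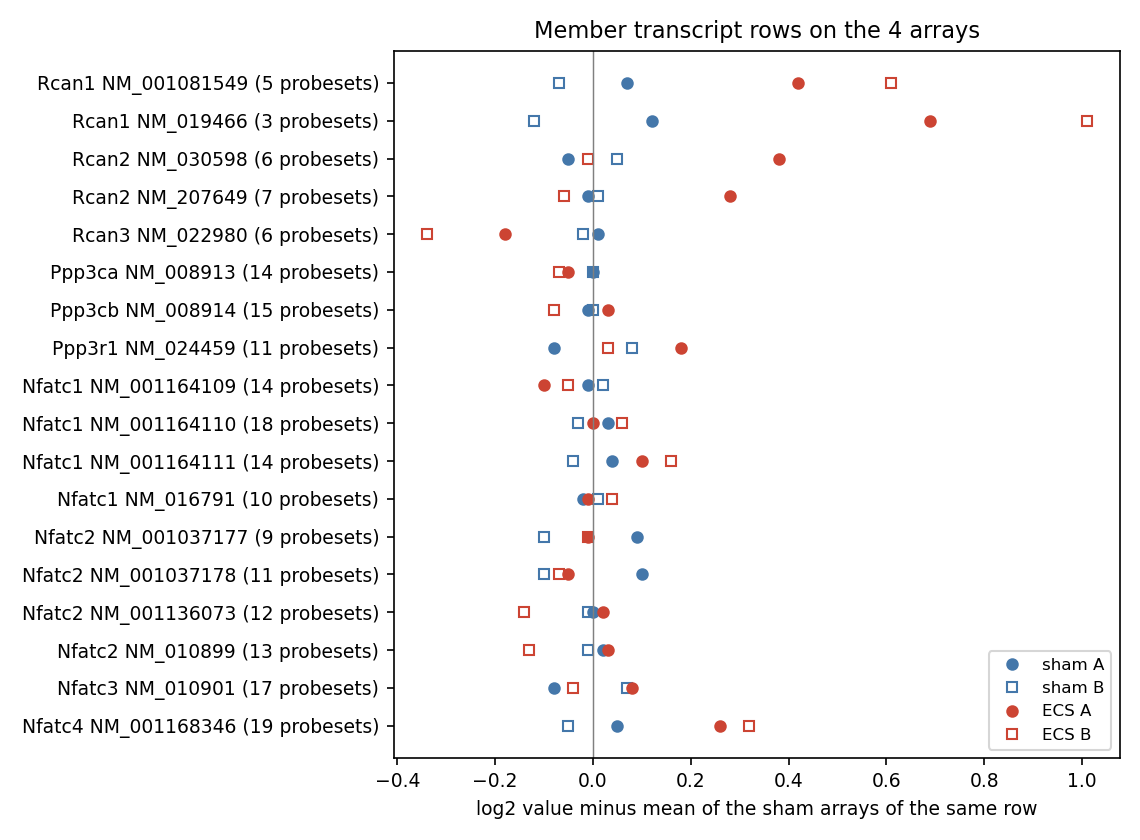
Each row of points is a member transcript row, named by its first RefSeq transcript, with the 4 arrays at their log2 value minus the row's sham mean. The ECS arrays of the Rcan1 rows lie to the right of all sham arrays, those of Nfatc4 also lie to the right, and those of Rcan3 lie to the left.

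Rcan1, the feedback inhibitor of calcineurin, has a longer form (RefSeq NM_001081549) that spans 74.2 kb and a shorter form (NM_019466) that spans 8.1 kb. Their starts lie 66.1 kb apart. The windows around both annotated starts are shown because the forms differ in the promoter that makes them. Each window holds 250 bases before and 50 bases after the start, from RefSeq on GRCm38.p6, written 5′ to 3′ on the minus strand. Capitals mark the NFAT core GGAAA, the cyclic AMP response element TGACGTCA and the AP-1 element TGANTCA on either strand.
Rcan1 longer form, chr16:92466120-92466419: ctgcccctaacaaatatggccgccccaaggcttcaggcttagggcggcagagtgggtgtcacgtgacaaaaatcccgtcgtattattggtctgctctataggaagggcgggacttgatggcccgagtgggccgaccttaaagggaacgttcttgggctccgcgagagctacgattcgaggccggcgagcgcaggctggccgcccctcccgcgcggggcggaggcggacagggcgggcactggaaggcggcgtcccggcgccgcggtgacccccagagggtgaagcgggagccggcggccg
Rcan1 shorter form, chr16:92400029-92400328: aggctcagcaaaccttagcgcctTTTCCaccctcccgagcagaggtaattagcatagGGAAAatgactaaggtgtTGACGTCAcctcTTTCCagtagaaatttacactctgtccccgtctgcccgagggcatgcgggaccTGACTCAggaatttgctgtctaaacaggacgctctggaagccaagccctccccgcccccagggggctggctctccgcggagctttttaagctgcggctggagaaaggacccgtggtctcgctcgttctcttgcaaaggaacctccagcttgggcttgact

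The window of the shorter form holds 3 GGAAA cores, 1 TGACGTCA and 1 TGANTCA, and the window of the longer form holds none of these. Counted from 0 at the start, the cores begin at -227, -193 and -163, TGACGTCA begins at -175 and TGANTCA at -110. None of the 5 matches overlaps another. Of 32851 such windows in the table, 9.42% hold at least 3 GGAAA cores, 1.79% hold TGACGTCA and 7.81% hold TGANTCA. Windows with at least 1 of each of the 3 motifs numbered 14, or 0.0426%. The cut of 3 cores and this combination are what the shorter form's window itself holds, so the shares only describe it. A match of letters is a description and does not show that a factor binds there.

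The shorter Rcan1 row read 9.28 and 9.04 in sham (A, B) against 9.85 and 10.17 in ECS (A, B). Both ECS arrays lay above both sham arrays. The mean was 9.16 ± 0.17 in sham and 10.01 ± 0.23 in ECS (SD, n = 2), a log2 difference of 0.84 ± 0.15 (SE) or 1.79-fold. In size this difference ranked 165 of 19207 rows, and the row missed limma's threshold (adjusted p = 0.0988). On the longer row the arrays read 9.30 and 9.16 in sham against 9.65 and 9.84 in ECS, again without overlap. Its difference was 0.51 ± 0.11 (SE), or 1.43-fold. The median of a form's probesets in place of their mean left 0.27 for the shorter and 0.03 for the longer row.

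The Rcan1 rows differ by the probesets that the longer form alone holds. The deposited map lists 5 Rcan1 probesets, 3 for both forms, 2 for the longer form only and 0 for the shorter form only. The 3 shared probesets had a mean difference of 0.84, and the 2 of the longer form alone 0.02. The rows therefore give no separate reading of the shorter form's own first exon. Among genes with more than 1 distinct row, 1103 in number, the gap of 0.33 between the Rcan1 rows ranked 26, against a median gap of 0.03.

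A single probeset carried most of the difference in both rows. Probeset 4567413, listed for both forms, read 6.98 and 6.46 on sham 1 and 2, and 8.43 and 9.18 on ECS 1 and 2. The lowest ECS array was well above the highest sham array, and the log2 difference of 2.09 ± 0.34 (SE) is 4.25-fold. It was the increase ranked 83 of 229712 probesets. In limma's fit over single probesets no probeset passed the adjusted threshold, while 4.25% were higher and 5.92% lower at an unadjusted p under 0.05.

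The other Rcan1 probesets had smaller differences. Probeset 5004213, also of both forms, read 10.37 and 10.15 in sham against 10.46 and 10.61 in ECS, a difference of 0.27. Probeset 4564268, the third of both forms, read 10.50 and 10.53 against 10.65 and 10.72, a difference of 0.17. The ECS arrays lay above the sham arrays for both, by margins smaller than those of probeset 4567413. The 2 probesets of the longer form alone had differences of 0.03 and 0.01, with overlapping arrays. Without probeset 4567413 the shorter row's difference was 0.22 and the longer row's 0.12. This probeset thus supplied 82.6% of the summed difference of the shorter row and 81.3% of that of the longer row. The files give no position for single probesets, so the part of the gene it reads is not known here. The departure of 1 probeset from the median of a gene's others was larger than the 1.99 of Rcan1 in 0.584% of 16271 genes with at least 3 probesets. The blood markers described above also read higher after ECS and 4 of 8 granule cell markers lower, against 30.7% of all genes. Their part in the Rcan1 values was not tested.

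**Figure D2:**
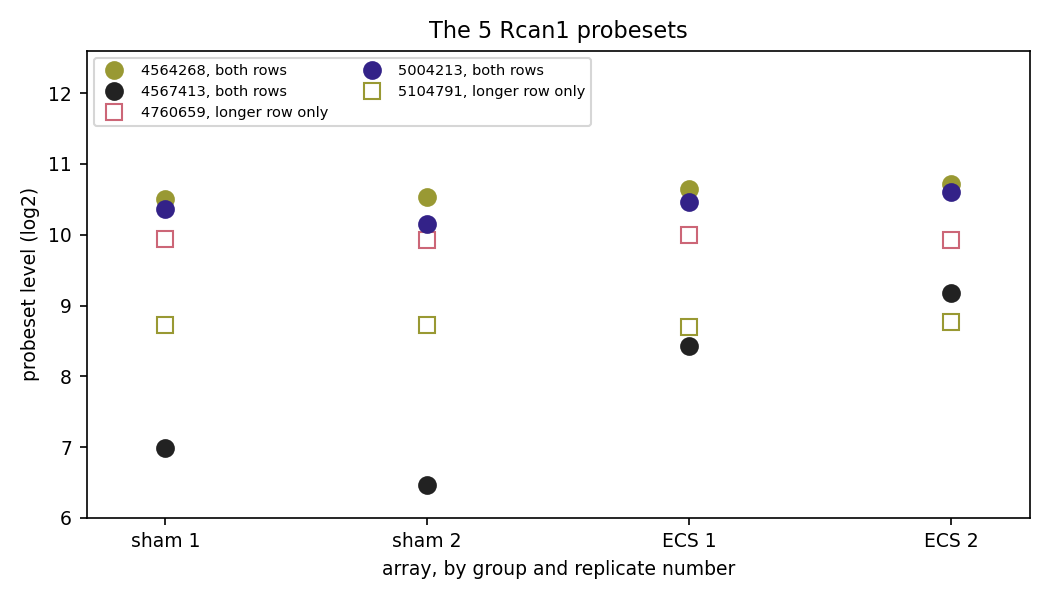
Log2 levels of the 5 Rcan1 probesets are plotted on each array, filled circles for probesets of both rows and open squares for those of the longer row only. Probeset 4567413 (black) read 6.46 to 6.98 in sham and 8.43 to 9.18 in ECS, and the others stayed between 8.70 and 10.72 on all arrays.

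The groups overlapped in both rows of Rcan2, a brain-expressed relative of Rcan1. The row of 6 probesets read 9.27 and 9.37 in sham against 9.70 and 9.31 in ECS, with a difference of 0.18 ± 0.15 (SE). ECS A was the highest array and ECS B lay between the sham arrays. The row of 7 probesets adds a single probeset of a transcript with an upstream start. That probeset read 7.21 and 6.78 in sham against 6.64 and 6.68 in ECS, a difference of -0.33 without overlap. Of the 6 probesets of both rows 2 had both ECS arrays above both sham arrays, with differences of 0.33 and 0.11, and 4 overlapped. Over all probesets 17.6% lay above in this way and 25.6% below.

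Rcan3, the third family member, lay lower after ECS. Its arrays read 7.36 and 7.33 in sham against 7.17 and 7.01 in ECS, without overlap. The difference of -0.26 ± 0.10 (SE) is 1.19-fold lower and missed the threshold, and 21.9% of all rows had a larger absolute difference. It was -0.14 with the median over probesets, -0.17 without ECS B, and -0.19 with quantile normalization and with median centring. Of its 6 probesets 5 had negative differences, the lowest -0.52, and the other had 0.04. Both ECS arrays lay below both sham arrays in 2 of the 6, against 25.6% of all probesets, and the groups overlapped in 4.

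The calcineurin subunit genes read close to their sham values, on nearly all of their probesets. Ppp3ca, the catalytic alpha subunit gene, read 12.76 on both sham arrays against 12.71 on ECS A and 12.69 on ECS B. The groups did not overlap, but the difference of -0.06 was smaller than its moderated SE of 0.09, which is drawn toward the other rows. The replicates of Ppp3ca itself lay closer together, with an SD of 0.00 in sham and 0.02 in ECS. Its 14 probesets had differences between -0.16 and 0.07. Ppp3cb, the catalytic beta subunit gene, read 11.35 and 11.36 in sham against 11.39 and 11.28 in ECS, a difference of -0.03 ± 0.09 (SE), and its 15 probesets lay between -0.15 and 0.15. Ppp3r1, the regulatory B subunit gene, read 11.71 and 11.87 against 11.97 and 11.82, a difference of 0.10 ± 0.11 (SE) with overlapping arrays. Of the 40 probesets of these 3 genes, 2 had an absolute difference of at least 0.2. Both belong to Ppp3r1 (probeset 4890059 with 0.56 and probeset 5311297 with 0.38).

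Among the NFAT genes, Nfatc4 had the largest difference. NFATc4 is the family member best known for calcium-driven transcription in hippocampal neurons. The gene read 5.93 and 5.83 in sham against 6.14 and 6.20 in ECS, with both ECS arrays above both sham arrays. The difference was 0.29 ± 0.09 (SE) or 1.22-fold, it missed the threshold, and 17.7% of all rows had a larger absolute difference. With the median over probesets in place of the mean it was 0.47. Over its 19 probesets 14 differences were above 0, and 7 probesets had both ECS arrays above both sham arrays, 1 below, against 17.6% and 25.6% of all probesets. Its probesets with differences of 0.62 to 0.75 and separated arrays, 4 in number, read between 5.07 and 7.42 over the 4 arrays. The dimmer probeset 4433730, counted among the 7, read 2.97 and 4.15 in sham against 4.62 and 4.15 in ECS, so its groups are apart by less than the digits shown. The brightest, probeset 4570330, read 11.13 and 10.85 in sham against 10.88 and 11.20 in ECS, a difference of 0.05.

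Nfatc1, which in lymphocytes makes an inducible form from its upstream promoter, has 6 transcripts that fall into 4 distinct rows with differences of -0.07, 0.03, 0.13 and 0.02. The row with 0.13 read 6.13 and 6.05 in sham against 6.19 and 6.25 in ECS, and the row with -0.07 read 7.01 and 7.04 against 6.92 and 6.97. The groups did not overlap in these rows and overlapped in the other Nfatc1 rows. The rows differ in which probesets they average. The 4 probesets listed only for transcripts with the upstream start, 4.9 kb from the other, had means of 8.94 and 8.97 in sham against 8.62 and 8.68 in ECS, a difference of -0.30. All 4 were negative, from -0.75 to -0.10. The 4 probesets listed only for transcripts with the longer 3′ end, which extend 41.2 kb further, had means of 5.88 and 5.53 in sham against 6.07 and 6.15 in ECS, a difference of 0.40. All 4 of these were positive, from 0.16 to 0.81. The 10 probesets of all Nfatc1 rows had a mean difference of 0.02 and ran from -0.55 to 0.56, which covers most of both ranges. The gap of 0.20 between the rows ranked 74 of 1103 genes.

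Nfatc2 and Nfatc3 showed no separation of their rows. The 4 Nfatc2 rows had differences of -0.06 to -0.01, and 2 probesets of a transcript with its own upstream start averaged 7.64 and 7.37 in sham against 7.30 and 7.16 in ECS. Nfatc3 read 7.32 and 7.47 in sham against 7.48 and 7.36 in ECS, a difference of 0.02 ± 0.10 (SE). Its 17 probesets ranged from -0.31 to 0.67.

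**Figure D3:**
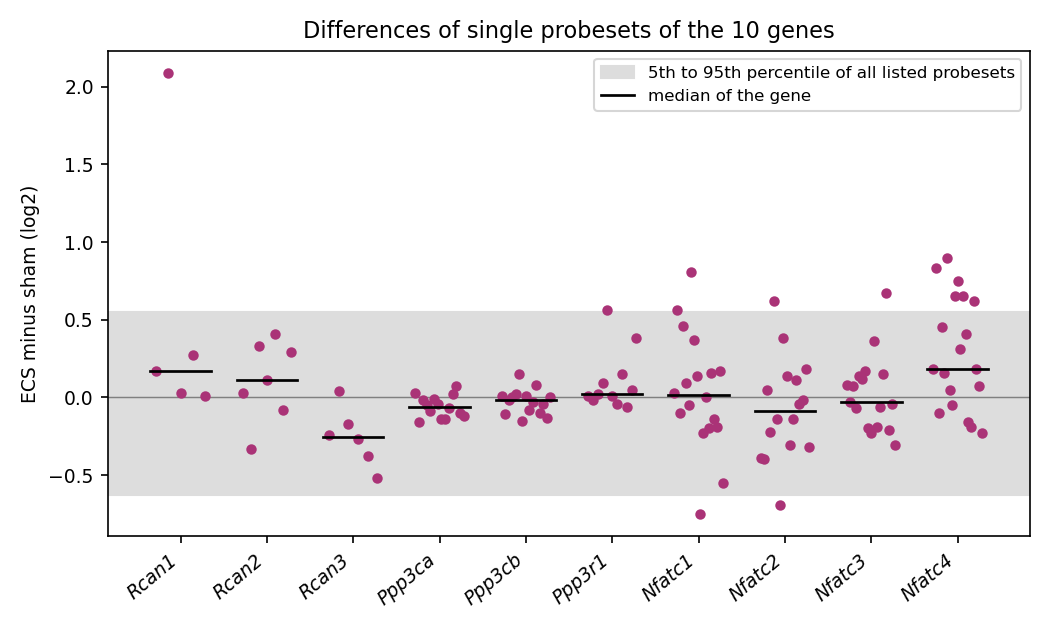
Each point is the ECS minus sham difference (log2) of a single probeset, the bars are gene medians and the grey band spans the 5th to 95th percentile of all listed probesets (-0.63 to 0.55). The Rcan1 probeset at 2.09 is the only one of 128 at or above 1, and none is at or below -1.

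Promoter windows were found for 8 of the 10 genes, 13 windows in all. GGAAA was present in 8 of them, against 61.3% of all windows. The windows with at least 3 cores were those of the shorter Rcan1 form, Ppp3cb, Nfatc4 and 1 of Nfatc2, 4 of 13, against 9.42% of all windows. The cut equals the count in the shorter Rcan1 window, which is among the 4, so the share is a description. TGACGTCA occurred in the window of the shorter Rcan1 form only, 1 of 13, and TGANTCA there and in 1 Rcan2 window.

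**Figure D4:**
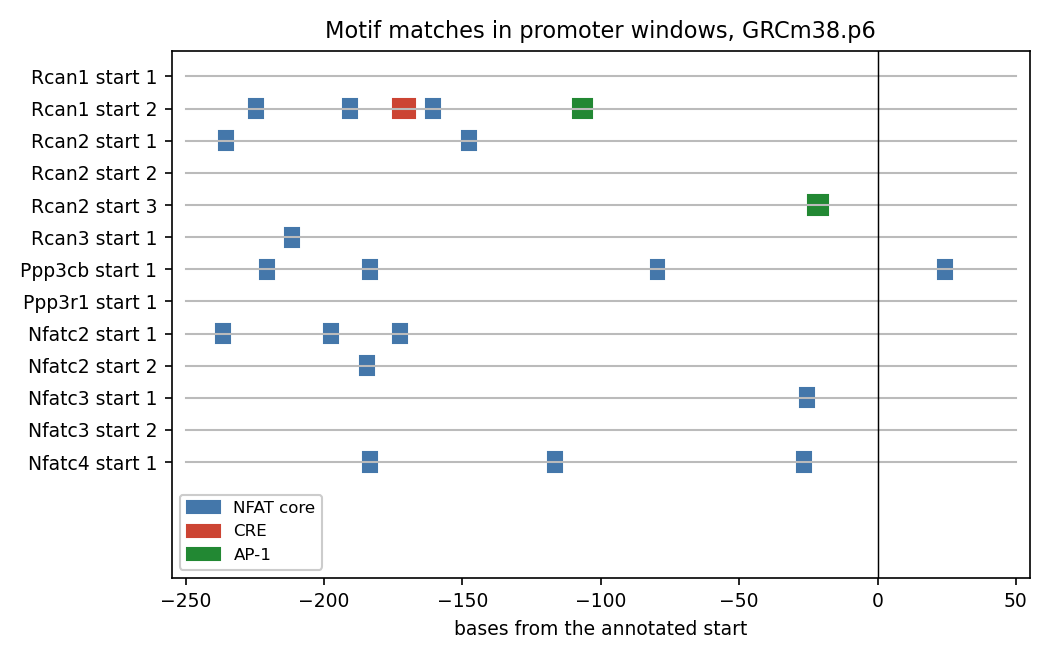
Boxes mark matches to GGAAA (NFAT core), TGACGTCA (CRE) and TGANTCA (AP-1) in each promoter window, by distance in bases from the annotated start. The second Rcan1 window, that of the shorter form, holds 3, 1 and 1 of these, and the first Rcan1 window holds none.

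Other genes of the pathway were taken from 6 lists with 81 entries, 80 different genes and all measured. A gene was counted through its row with the highest mean. Of these genes 2 rose and 0 fell in limma's test at an adjusted p under 0.05, against 0.500% and 0.194% of all genes. At an unadjusted p under 0.05, 9 were higher and 5 lower, against 6.41% and 10.6%. Both genes that rose stand in the list of known NFAT targets, drawn mostly from immune cells. Without any one of the 4 arrays neither was called.

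Egr3, a transcription factor gene induced by NFAT in T cells, rose 3-fold from 8.91 and 8.78 to 10.37 and 10.48 on 1 probeset, a difference of 1.59 ± 0.10 (SE; limma adjusted p = 0.0122). Ptgs2, which encodes an inducible prostaglandin synthase, rose 2.04-fold from 9.19 and 9.39 to 10.39 and 10.25, a difference of 1.03 ± 0.11 (SE; limma adjusted p = 0.0414). The groups of both genes were well apart. In this list of 16 genes the median difference was 0.22, against -0.04 over all genes, and 8 had both ECS arrays above both sham arrays and 4 below, against 18.7% and 30.7% of all genes. Beside Egr3, Ptgs2, Bdnf and Nr4a1, the 8 were Il2, Ifng, Fasl and Tnf. Those read only 4.13 to 5.65 over the arrays, with differences of 0.11 to 0.37. How far such readings stand above background is unknown. At the low end were Itpr1, the store calcium channel gene that also stands in the next list (-0.38 ± 0.12, SE), and Cd40lg, a T cell ligand gene (-0.21). The list was made with results of these arrays known, so it is no independent evidence of a direction.

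No gene of the list of calcium entry and store release passed, and its median was -0.15 over 15 genes. Both ECS arrays lay below both sham arrays in 10 of the 15 and above them in 1, against 30.7% and 18.7% of all genes. Cacna1d, an L-type calcium channel gene, read 8.62 and 8.68 in sham against 8.21 and 8.11 in ECS, a difference of -0.49 ± 0.09 (SE). Orai1, which forms the store-operated calcium channel, lay the other way with 6.44 and 6.51 against 7.05 and 7.08, a difference of 0.59 ± 0.09 (SE). Trpc6 had -0.00.

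Of the remaining lists none had a gene past the threshold. Calcineurin's other subunits, calmodulins, anchors and immunophilins, 11 genes, had a median of 0.02. In that list Akap5, the anchor that holds calcineurin at the postsynapse, read 9.66 and 9.67 in sham against 9.34 and 9.28 in ECS, a difference of -0.36 ± 0.09 (SE). Ppp3cc, a further catalytic subunit gene, had -0.11, and the immunophilin gene Fkbp1a and the calcineurin-like protein gene Chp1 had 0.18 and 0.17.

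The 14 kinases that phosphorylate NFAT had a median of 0.05. Dyrk2 (0.34, on 1 probeset) and Mapk7 (0.33) were highest and Dyrk1b (-0.20) and Mapk14 (-0.19) lowest. The 13 nuclear partners and calcineurin-responsive factors had a median of -0.03, with Crtc3 at 0.19, Crtc2 at 0.18, Mef2c at -0.18 and Mef2a at -0.17. The 12 neuronal calcineurin substrates had a median of -0.00. In that list the phosphatase inhibitor gene Ppp1r1a had 0.28 and the cell death gene Bad -0.22.

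**Figure D5:**
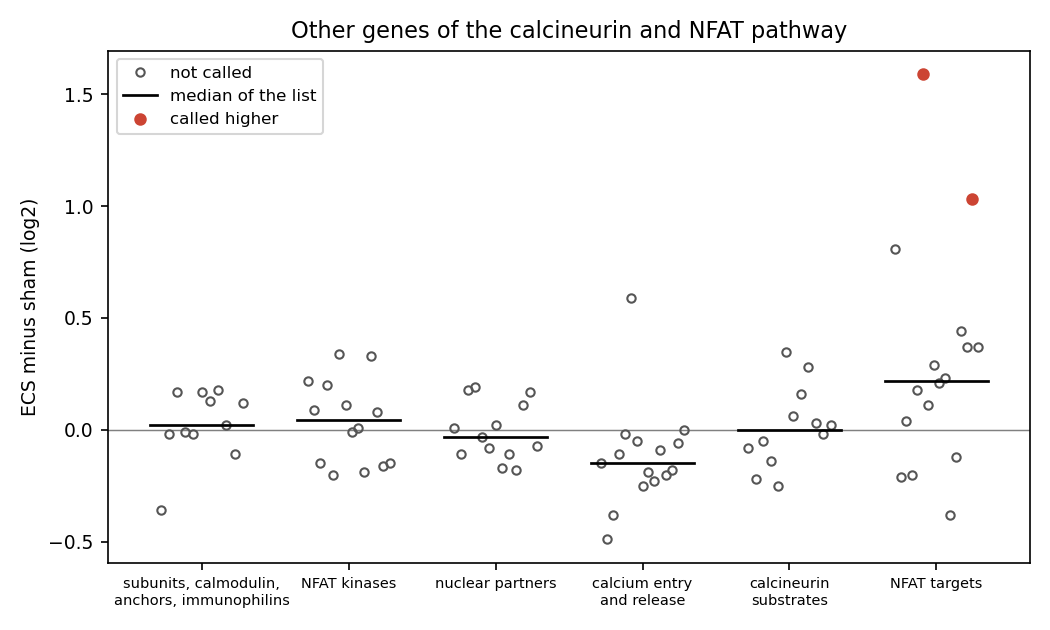
Each point is the ECS minus sham difference (log2) of 1 gene of the 6 lists, the bars are list medians and filled points are genes called higher. Egr3 (1.59) and Ptgs2 (1.03), both in the list of NFAT targets, are the filled points.

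The array pattern most like that of the shorter Rcan1 row was sought among 16906 named genes, by the distance between rows after each row's own mean over the 4 arrays was subtracted. The nearest were Krt80 (log2 distance 0.12), Sdk2 (0.13), Dmp1 (0.13), Pdgfb (0.14) and Defb8 (0.14), with differences of 0.80 to 0.94. Defb8 rests on 1 probeset that read only 2.75 to 3.91, and Krt80 on 2 with means of 4.91 to 6.01. How far these stand above background is unknown. Pdgfb, a growth factor gene, read 7.99 and 7.90 in sham against 8.63 and 8.85 in ECS. Likeness over 4 arrays is a description of these arrays.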

How the data were processed

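The members and lists were chosen with earlier results of these data known. The deposited transcript table holds log2 values that are, within 5e-09, means of the probeset log2 values in the series matrix, with the arrays of each group compared in sorted order. The submitters' processing notes name RMA and oligo; versions and the genome build are not given in the sources used here. The column letters match no label. Columns named for 0 h were taken as sham, and the labelled sham arrays gave the same values. For the shorter Rcan1 row, Rcan3, Ppp3r1, Nfatc3 and Nfatc4, the probeset means of replicates 1 and 2 equalled the values under letters A and B. Rows with no probeset (3621, listed at 0) were left out. ECS was compared with sham in limma 3.58.1 (R 4.3.3), with lmFit and eBayes as a two-sided test without block or filter, over all distinct rows, and over all listed probesets. The test was checked on simulated data. The 2 arrays a group limit the precision, and how far a probeset stands above background is unknown. RefSeq ids were matched to GRCm38.p6 symbols (24932 of 25635). Named genes were all members, called genes and the 2 highest and 2 lowest differences of each list, and the 5 most alike rows; some genes that this rule names are not reported here. Sequences are RefSeq's.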

Additional observations from a re-analysis of the deposited data

How the results depend on the processing

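No member row was called lower under any setting run. The number called higher, 0 as reported, was 1 at an adjusted p under 0.10, 1 without the dimmest 25% of rows, 2 with trend and robust eBayes, and 1 with crossed replicate numbers as a block. These were Rcan1 rows, and the shorter row's adjusted p ranged from 0.0156 to 0.451 over the settings. Over all rows, 267 of 14405 were called higher and 232 lower without the dimmest rows. With trend and robust eBayes 412 of 19207 were higher and 384 lower, and the crossed block gave 90 higher. No count over all rows is given at an adjusted p under 0.10, so calls there have no share beside them. Leaving out 1 array in turn gave 0 to 0 member rows, differences of 0.68 to 1.00 for the shorter and 0.42 to 0.61 for the longer Rcan1 row, and 0 called pathway genes. The Rcan1 differences were 0.27 and 0.03 with the median over probesets, and 0.22 and 0.12 without the probeset with the largest difference, which by construction removes that probeset. Of the 80 pathway genes, 4 were called higher at an adjusted p under 0.10. Without the dimmest rows 4 were higher and 1 lower, with trend and robust eBayes 4 higher and 3 lower, and with the replicate block 0.

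Over all rows, 98 higher and 37 lower calls became 267 and 232 without the dimmest rows, 412 and 384 with trend and robust eBayes, 0 to 5 and 0 to 2 without 1 array, 0 and 0 with probeset medians (1085 and 1570 at an unadjusted p under 0.05) and 17 and 1 with the replicate block. Deviations of same-numbered arrays correlated at -0.204, so the numbers were not taken as pairs; the crossed block gave 90 and 33. Of 160 values of the 16 other member rows, 138 stayed within 1 SD between replicates. Most could not do otherwise, so this count does not measure stability. Leaving out 1 of the 2 arrays of a group cannot shift a difference by more than that. The replicate block, the series matrix means and the use of unshared probesets left the differences as they were. The 22 that moved by more all came from quantile normalization, median centring or probeset medians. Of the 160 values, 23 had the opposite sign, in 10 rows with differences of at most 0.18. The crossed block and the removal of the Rcan1 probeset were chosen after seeing the data; beyond fewer arrays or rows tested, causes were not tested.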
